A study of Mus musculus with 18 samples.

Results

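The 10 genes described here carry and restrain signalling from Toll-like receptors to the transcription factor NF-kappaB. They are Cd14, Tlr2, Tlr4, Myd88, Nfkb1, Nfkb2, Relb, Nfkbia, Tnfaip3 and Bcl3, taken by symbol from a kidney RNA sequencing table of 20825 genes, each found in 1 row. Levels are in FPKM (fragments per kilobase and per unit of library size) in 18 libraries of whole kidney from C57BL/6 mice aged 11 weeks, in 6 groups of 3 biological replicates. UIR stands for unilateral ischemia and reperfusion, here a clamp on the pedicle of the right kidney for 45 minutes followed by release, with the left kidney intact. UIR mice and sham mice, for which the labels describe no further step, were killed 1 day, 3 days or 21 days (week 3) after the operation. The labels say neither which kidney was taken nor the sex of the mice, and days of tissue collection or library preparation are not given in the sources used here, so that any batch that follows a group cannot be told apart from it.

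Toll-like receptors sit on the cell surface or in endosomes and bind microbial molecules and molecules released by damaged cells. Most of them signal through the adaptor MyD88 to kinases that tag the inhibitor IkappaB for destruction, which frees Rel-family dimers to enter the nucleus. NF-kappaB then raises the transcription of several of its own subunits and of its own brakes, among them IkappaB-alpha and A20, and in the injured kidney both tubule cells and arriving leukocytes can use this pathway. In bulk tissue, fewer cells of a type and less RNA per cell cannot be told apart.

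The genes' promoters are shown because Rel dimers bind a short DNA motif, the NF-kappaB (kappaB) consensus, in their targets. RefSeq promoter windows on GRCm38.p6, the 250 bases before a start, were found for 6 of the 10 genes: Tlr2, Myd88, Nfkb2, Nfkbia, Tnfaip3 and Bcl3. Both strands were searched for the consensus, and overlapping matches were joined into 1 stretch. A match lay in windows of 4 of these 6 genes, Tlr2, Nfkb2, Nfkbia and Tnfaip3, against 3.9% of 32851 windows and 4.46% of 27025 genes. A match is a description of the letters and not a measured binding site. Printed below, from 5′ to 3′ in the direction of the gene, are the parts of 3 windows outside annotated exons, with the matching stretches in capitals.
Nfkbia, chr12:55492648-55492897, minus strand: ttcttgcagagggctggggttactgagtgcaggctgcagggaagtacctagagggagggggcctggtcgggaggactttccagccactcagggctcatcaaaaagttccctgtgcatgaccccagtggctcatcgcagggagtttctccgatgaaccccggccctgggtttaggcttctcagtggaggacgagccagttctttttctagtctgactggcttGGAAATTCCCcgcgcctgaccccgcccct
Tnfaip3, chr10:19015411-19015547, minus strand: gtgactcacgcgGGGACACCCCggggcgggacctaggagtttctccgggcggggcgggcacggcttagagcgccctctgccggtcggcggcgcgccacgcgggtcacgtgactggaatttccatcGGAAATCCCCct
Tlr2, chr3:83841768-83841858, minus strand: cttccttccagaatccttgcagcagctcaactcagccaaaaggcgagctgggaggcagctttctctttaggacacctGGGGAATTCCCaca

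The stretch in Nfkbia began 29 bases before the start, those in Tnfaip3 began 125 and 12 bases before it, and that in Tlr2 began 173 bases before it. For Nfkb2, whose matches lay in annotated exons, only the matching letters are given. In its first window these were GGGAATTCCCC, 39 bases before the start, and GGGGCTTTCC, 11 bases before it. The windows of Myd88 and Bcl3 did not hold these letters.

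FPKM sums ran from 424207 to 549490 per library, with the lowest sums in UIR kidneys at day 3 and week 3, and read depth is unknown. Of the 20825 genes, 14716 had at least 1 FPKM in at least 3 libraries and were tested. All 10 genes were among them, but Tlr4 entered through UIR libraries alone (0 of 9 sham and 9 of 9 UIR libraries at 1 FPKM or more), and Tlr2 reached that level in 3 sham and 8 UIR libraries. Differences are log2 folds of FPKM + 1 ± SE from limma, a linear model fitted across all genes and all 18 libraries. Adjusted p-values are Benjamini-Hochberg values over the 14716 genes, with a threshold of 0.05, and higher, lower, rose and fell are used of what passed it. The comparisons between groups share libraries, so the values given side by side below are not independent of each other.

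Of the 10 genes, 6 were higher in UIR than in sham kidneys at day 1 (28.5% of all genes tested were higher), 1 was lower (31.1% of all genes), and 3 did not pass. All 10 were higher at day 3 (57.6% of all genes were higher and 17.9% lower) and all 10 at week 3 (60.7% higher and 20.1% lower). Tlr4, counted as higher at all 3 times, had passed the filter through its UIR libraries alone. The 3 UIR values lay wholly above the 3 sham values in 6 of the 10 genes at day 1, in 10 at day 3 and in 10 at week 3. Values of the groups did not overlap, in either direction, in 61.3%, 78.7% and 84.3% of all genes at those times. The median log2 fold of the 10 genes was 0.65 at day 1, 2.62 at day 3 and 2.80 at week 3, against -0.03, 0.44 and 0.53 over all genes tested.

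**Figure D1:**
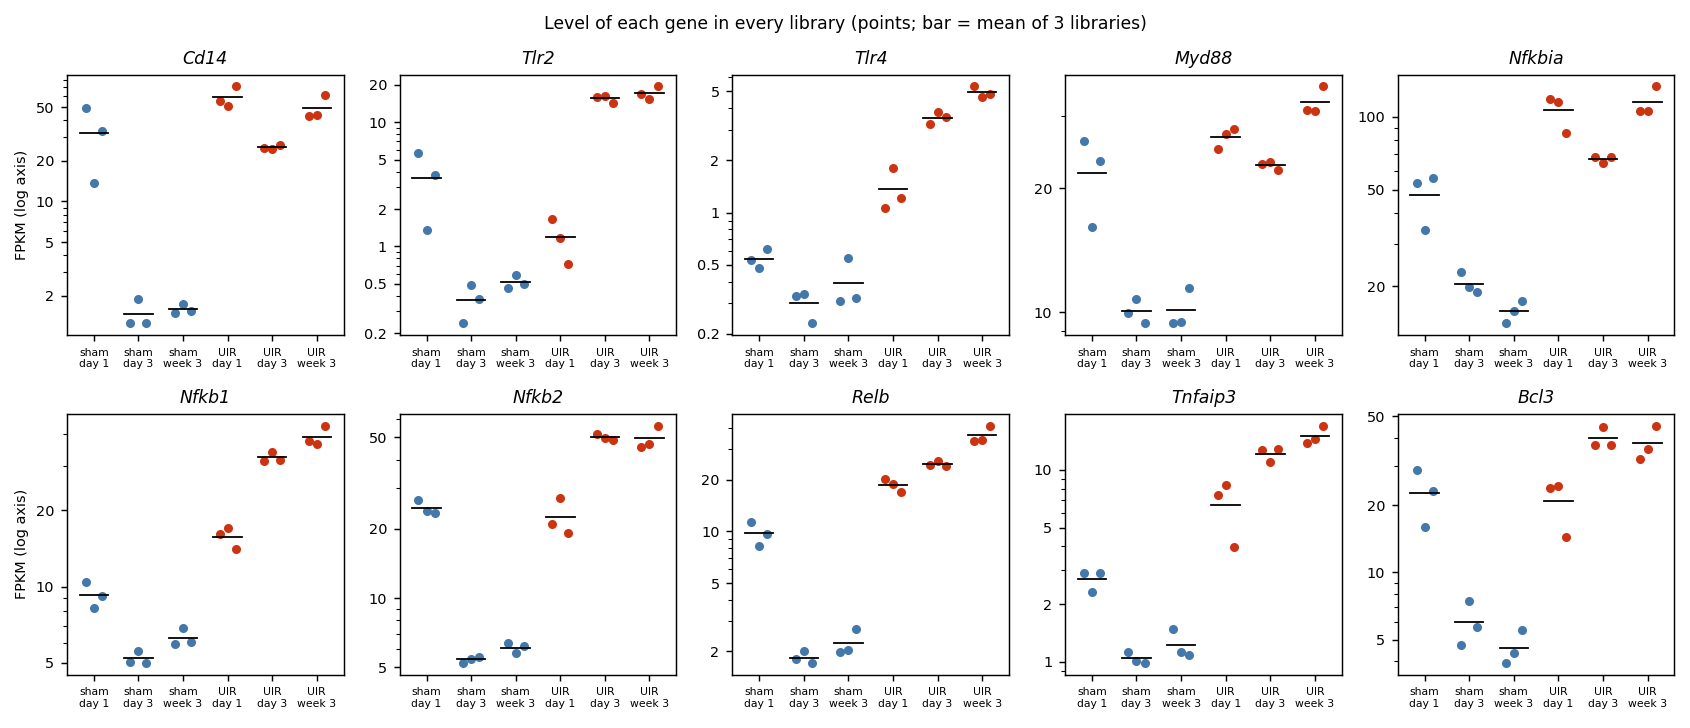
Level of each of the 10 genes in all 18 libraries, in FPKM on a log axis. Blue points are sham and red points UIR libraries, 3 per group, and the bar is their mean. The mean of sham day 1 stands above those of the later sham groups in every panel, and for Tlr2 the UIR libraries of day 1 (0.72 to 1.66 FPKM) lie far below those of day 3 (14.4 to 16.3 FPKM).

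Cd14 (Entrez 12475) encodes the co-receptor that binds bacterial lipopolysaccharide and hands it to TLR4. Sham libraries held 49.3, 13.7 and 33.3 FPKM at day 1, 1.26, 1.89 and 1.25 FPKM at day 3, and 1.49, 1.75 and 1.55 FPKM at week 3. UIR libraries held 55.4, 51.3 and 71.2 FPKM at day 1, 24.8, 24.5 and 26.1 FPKM at day 3, and 42.8, 44.0 and 61.2 FPKM at week 3. All UIR values lay above all sham values of their day, with the narrowest gap at day 1. UIR minus sham was 1.02 ± 0.30 at day 1 (adjusted p = 0.0077), 3.41 ± 0.30 at day 3 (adjusted p = 3.8e-08) and 4.26 ± 0.30 at week 3 (adjusted p = 1.8e-09). The value at day 1 was 0.52 without sham day-1 replicate 2, and in leave-one-out fits it ran from 0.52 to 1.41. The call at day 1 was lost when only the libraries compared were fitted (adjusted p = 0.083). Within UIR kidneys Cd14 fell by 1.19 on the log2 scale from day 1 to day 3 (adjusted p = 0.0023) and rose by 0.93 from day 3 to week 3 (adjusted p = 0.015), a rise that did not pass without UIR week-3 replicate 3 (0.76, adjusted p = 0.067).

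Tlr2 (Entrez 24088), a surface receptor for bacterial lipopeptides, was the only one of the 10 genes that was lower in UIR kidneys at day 1. Its sham values were 5.65, 1.36 and 3.75 FPKM at day 1, 0.24, 0.49 and 0.38 FPKM at day 3, and 0.46, 0.59 and 0.50 FPKM at week 3. Its UIR values were 1.66, 1.17 and 0.72 FPKM at day 1, 15.96, 16.3 and 14.4 FPKM at day 3, and 16.8, 15.3 and 19.4 FPKM at week 3. At day 1 the groups overlapped, since sham replicate 2 lay among the UIR values, while at the later times the UIR values stood far above. The log2 fold was -0.97 ± 0.26 at day 1 (adjusted p = 0.0042), a call lost with only the libraries compared (adjusted p = 0.069), then 3.60 ± 0.26 at day 3 (adjusted p = 4e-09) and 3.58 ± 0.26 at week 3 (adjusted p = 2.6e-09). Without sham day-1 replicate 1 the value at day 1 was -0.64. The ratio of mean FPKM, UIR to sham, was 42.0 at day 3 and 33.2 at week 3. Within UIR kidneys it rose by 2.94 ± 0.26 from day 1 to day 3 (adjusted p = 9.2e-08), the largest of the 7 rises in that step, and the step to week 3 was 0.13 (adjusted p = 0.69).

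Tlr4 (Entrez 21898), the lipopolysaccharide receptor, had the lowest mean of the 10 genes in 5 of the 6 groups. Sham libraries held 0.53, 0.48 and 0.62 FPKM at day 1, 0.33, 0.34 and 0.23 FPKM at day 3, and 0.31, 0.55 and 0.32 FPKM at week 3. UIR libraries held 1.06, 1.80 and 1.22 FPKM at day 1, 3.24, 3.77 and 3.56 FPKM at day 3, and 5.33, 4.60 and 4.82 FPKM at week 3. UIR values lay above sham values at every time, and those of week 3 were all above those of day 3. UIR minus sham was 0.60 ± 0.11 at day 1 (adjusted p = 0.00024), 1.80 ± 0.11 at day 3 (adjusted p = 7.9e-10) and 2.09 ± 0.11 at week 3 (adjusted p = 1e-10). At such low levels the added 1 FPKM compresses the fold: the ratio of mean FPKM was 2.50, 11.7 and 12.5 at the 3 times. Tlr4 passed the filter through its UIR libraries alone, so its calls as higher rest on values that also selected it.

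Myd88 (Entrez 17874), the adaptor used by most Toll-like receptors, had the smallest difference of the 10 genes at day 3 and at week 3. In sham kidneys it stood at 26.1, 16.1 and 23.2 FPKM at day 1, at 9.96, 10.8 and 9.43 FPKM at day 3, and at 9.40, 9.47 and 11.5 FPKM at week 3. In UIR kidneys it stood at 24.9, 27.1 and 27.9 FPKM at day 1, at 22.9, 23.2 and 22.1 FPKM at day 3, and at 30.9, 30.8 and 35.3 FPKM at week 3. The groups overlapped at day 1 only. The difference was 0.30 ± 0.13 at day 1 and did not pass (adjusted p = 0.057), but it passed without sham day-1 replicate 1 (0.44, adjusted p = 0.0092), in TPM and after median-of-ratios scaling (adjusted p = 0.047 in both). It was 1.10 ± 0.13 at day 3 (adjusted p = 1.2e-06) and 1.59 ± 0.13 at week 3 (adjusted p = 1.2e-08), and after median-of-ratios scaling 0.60 and 0.996, still called.

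Nfkb1 (Entrez 18033) encodes p105, the precursor of the p50 subunit of the canonical pathway. Sham values were 10.4, 8.20 and 9.20 FPKM at day 1, 5.05, 5.54 and 5.00 FPKM at day 3, and 5.92, 6.83 and 6.03 FPKM at week 3. UIR values were 16.2, 17.0 and 14.1 FPKM at day 1, 31.5, 34.0 and 31.8 FPKM at day 3, and 37.5, 36.6 and 43.2 FPKM at week 3. No UIR library fell within the sham range of its day, and the UIR level stepped up from each time to the next without overlap. The difference was 0.71 ± 0.10 at day 1 (adjusted p = 1.1e-05), 2.43 ± 0.10 at day 3 (adjusted p = 4.3e-12) and 2.47 ± 0.10 at week 3 (adjusted p = 6.9e-12).

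Nfkb2 (Entrez 18034), which encodes p100, the precursor of the p52 subunit of the non-canonical pathway, did not pass at day 1. Sham kidneys held 26.8, 24.0 and 23.4 FPKM at day 1, 5.24, 5.45 and 5.56 FPKM at day 3, and 6.35, 5.76 and 6.17 FPKM at week 3. UIR kidneys held 21.0, 27.3 and 19.2 FPKM at day 1, 51.4, 49.5 and 48.6 FPKM at day 3, and 45.5, 46.7 and 56.1 FPKM at week 3. At day 1 UIR replicate 2 lay above all sham values and the other UIR libraries below them, and later all UIR values were far above. The log2 fold was -0.14 ± 0.11 at day 1 (95% interval -0.37 to 0.09, adjusted p = 0.27), and it passed as lower without UIR replicate 2 (-0.29, adjusted p = 0.016). It was 2.99 ± 0.11 at day 3 (adjusted p = 1.9e-12) and 2.82 ± 0.11 at week 3 (adjusted p = 6.5e-12).

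Relb (Entrez 19698), the partner of p52 in the non-canonical pathway, differed at all 3 times. Sham libraries gave 11.4, 8.19 and 9.69 FPKM at day 1, 1.80, 2.00 and 1.72 FPKM at day 3, and 1.98, 2.04 and 2.70 FPKM at week 3. UIR libraries gave 20.3, 18.8 and 16.9 FPKM at day 1, 24.4, 25.7 and 23.9 FPKM at day 3, and 33.6, 34.1 and 41.3 FPKM at week 3. UIR values lay above sham values throughout, and the 3 UIR groups did not overlap one another. The difference was 0.88 ± 0.12 at day 1 (adjusted p = 9.7e-06), 3.18 ± 0.12 at day 3 (adjusted p = 2.2e-12) and 3.53 ± 0.12 at week 3 (adjusted p = 2.6e-12), where the ratio of mean FPKM reached 16.2.

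Nfkbia (Entrez 18035) encodes IkappaB-alpha, which holds Rel dimers in the cytoplasm, and it had the highest mean FPKM of the 10 genes in all 6 groups. Sham kidneys held 53.4, 34.2 and 55.7 FPKM at day 1, 22.9, 19.9 and 18.9 FPKM at day 3, and 14.1, 15.9 and 17.5 FPKM at week 3. UIR kidneys held 118, 115 and 85.8 FPKM at day 1, 68.5, 64.7 and 68.0 FPKM at day 3, and 105, 105 and 134 FPKM at week 3. The UIR level was thus high, lower and high again, above sham in every library. By ratio of mean FPKM the day-1 difference of Nfkbia was 2.23, under the 2.50 of Tlr4 and the 2.44 of Tnfaip3. On the log2 scale UIR minus sham was 1.16 ± 0.17 at day 1 (adjusted p = 2e-05), the largest day-1 difference on this scale, 1.66 ± 0.17 at day 3 (adjusted p = 1.7e-07) and 2.78 ± 0.17 at week 3 (adjusted p = 3e-10). Within UIR kidneys it fell by 0.64 on the log2 scale from day 1 to day 3 (adjusted p = 0.0028) and rose by 0.76 from day 3 to week 3 (adjusted p = 0.001).

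Tnfaip3 (Entrez 21929) encodes A20, a ubiquitin-editing enzyme that ends signalling upstream of the IkappaB kinases. Its sham values were 2.92, 2.32 and 2.89 FPKM at day 1, 1.13, 1.01 and 0.99 FPKM at day 3, and 1.48, 1.12 and 1.08 FPKM at week 3. Its UIR values were 7.44, 8.39 and 3.98 FPKM at day 1, 12.7, 11.0 and 12.8 FPKM at day 3, and 13.8, 14.5 and 17.0 FPKM at week 3. The lowest UIR value, replicate 3 of day 1, still exceeded every sham value. The difference was 0.99 ± 0.18 at day 1 (adjusted p = 0.00015), 2.68 ± 0.18 at day 3 (adjusted p = 1.4e-09) and 2.85 ± 0.18 at week 3 (adjusted p = 4.1e-10).

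Bcl3 (Entrez 12051) encodes a nuclear IkappaB-family protein that binds p50 and p52 homodimers on DNA. Sham values were 28.6, 16.03 and 23.1 FPKM at day 1, 4.75, 7.49 and 5.73 FPKM at day 3, and 3.95, 4.37 and 5.51 FPKM at week 3. UIR values were 23.8, 24.4 and 14.3 FPKM at day 1, 37.2, 44.8 and 37.3 FPKM at day 3, and 32.1, 35.8 and 45.3 FPKM at week 3. The day-1 groups overlapped across most of their range, and the later UIR values lay well above sham. The log2 fold was -0.11 ± 0.22 at day 1 (95% interval -0.58 to 0.36, adjusted p = 0.69), 2.56 ± 0.22 at day 3 (adjusted p = 3.2e-08) and 2.78 ± 0.22 at week 3 (adjusted p = 7.5e-09). The sign at day 1 turned without sham replicate 1 (0.07) or without UIR replicate 3 (0.12).

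**Figure D2:**
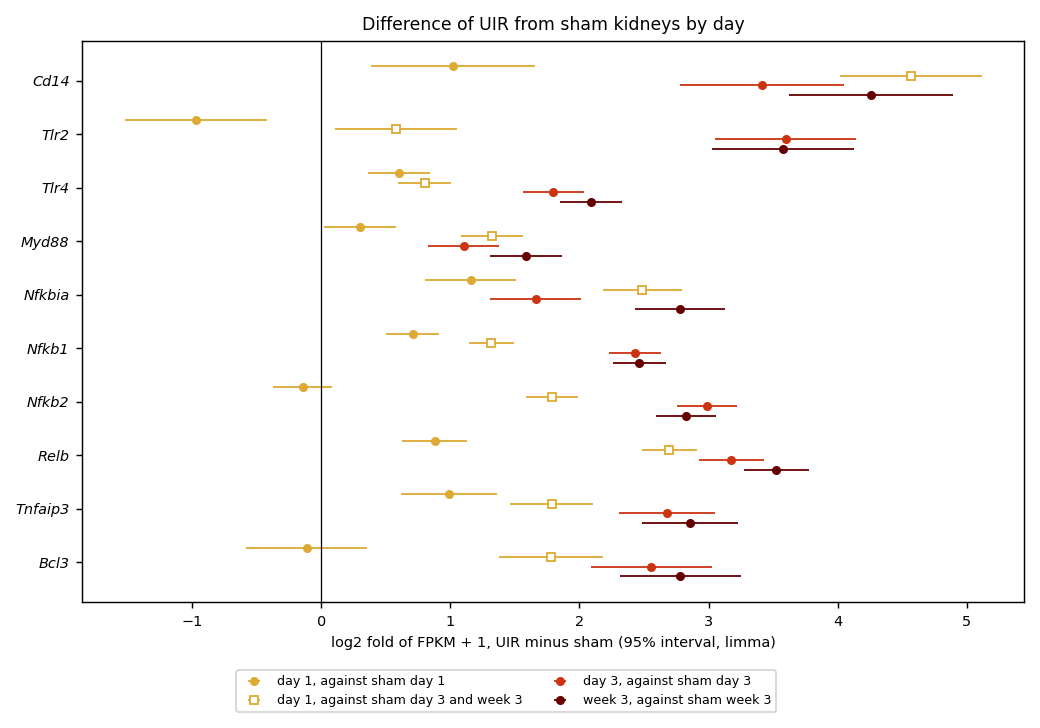
Log2 fold of FPKM + 1, UIR minus sham, for each gene with the 95% interval from limma. Filled points compare groups of the same day, and open squares compare UIR day 1 with the mean of the 2 later sham groups. At day 1 Tlr2 lies below 0 and Nfkb2 and Bcl3 near it, while against the later sham kidneys all 10 genes lie above 0.

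The sham kidneys themselves differed between day 1 and the later days. From day 1 to day 3, 9 of the 10 genes fell (29.7% of all genes fell and 12.8% rose). Cd14 fell by 3.59 ± 0.30 on the log2 scale (adjusted p = 2.7e-07), Nfkb2 by 2.00 ± 0.11 (adjusted p = 4.4e-09), Relb by 1.91 ± 0.12 (adjusted p = 1.7e-08) and Bcl3 by 1.74 ± 0.22 (adjusted p = 1.6e-05). Mean FPKM at day 1 was 21.9 times that at day 3 for Cd14, 9.69 times for Tlr2, 5.30 times for Relb and 4.57 times for Nfkb2. Tlr4 had a log2 fold of -0.25 ± 0.11 and did not pass (adjusted p = 0.088), although it did with a pseudocount of 0.1 FPKM (-0.69, adjusted p = 0.017), in TPM (adjusted p = 0.029), with library weights (adjusted p = 0.015), with only the libraries compared (adjusted p = 0.026) and without UIR day-1 replicate 2 (adjusted p = 0.042).

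At week 3 the sham levels of 9 of the 10 genes were likewise below those of day 1 (27.2% of all genes were lower and 12.3% higher), with Tlr4 again the exception (-0.15 ± 0.11, adjusted p = 0.31; with library weights -0.21, adjusted p = 0.049). Between the 2 later sham groups limma called none of the 10 genes. At an unadjusted p under 0.05 it gave 2, Nfkb1 (0.23, higher at week 3) and Nfkbia (-0.36). Of all genes 0.0136% were higher and 0.0204% lower in that step.

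In sham kidneys at day 1, replicate 2 gave the lowest value of the group in 9 of the 10 genes, Nfkb2 being the exception. That library also held the lowest summed level of 8 neutrophil markers, 27.1 FPKM, in a group that ranged up to 78.8 FPKM. Its sums for proximal tubule (4 genes, 1356 FPKM), thick ascending limb (2 genes, 959 FPKM) and collecting duct markers (2 genes, 150 FPKM) were the highest of the group. The neutrophil sum was 12.3 to 15.8 FPKM in sham kidneys at day 3 and 8.73 to 11.9 FPKM at week 3. From day 1 to day 3, 4 of the 7 neutrophil markers tested fell in sham kidneys (29.7% of all genes fell). Summed markers of monocytes and macrophages were 65.2 to 78.7, 50.7 to 57.5 and 48.6 to 59.8 FPKM in sham kidneys at the 3 times. The part of these cells in the sham levels was not tested.

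Because the sham level moved, UIR day 1 was also set against the mean of the 2 later sham groups. All 10 genes were higher in that comparison (39.6% of all genes were higher and 32% lower), with a median of 1.78 against 0.06 over all genes. The difference was 4.57 ± 0.26 for Cd14 (adjusted p = 2.9e-10), 2.70 for Relb (adjusted p = 3.9e-12), 2.49 for Nfkbia (adjusted p = 3.5e-10), 1.79 for Nfkb2 (adjusted p = 1.3e-10) and 1.78 for Bcl3 (adjusted p = 4.4e-07). Nfkb2 and Bcl3, which did not pass against sham of day 1, were thus higher than in sham kidneys of the other days. Tlr2 was the smallest on this scale at 0.58 ± 0.22 (adjusted p = 0.03), while by ratio of mean FPKM it (2.67) stood beside Myd88 (2.64). Its call was lost with a pseudocount of 5 FPKM (0.18, adjusted p = 0.16), without sham day-3 replicate 1 (adjusted p = 0.055), without UIR day-1 replicate 1 (0.43, adjusted p = 0.15) and without UIR day-1 replicate 2 (adjusted p = 0.072). In this comparison, too, day and operation differ between the groups.

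The effect of UIR, UIR minus sham of the same day, was larger at day 3 than at day 1 in 9 of the 10 genes by the test of that difference (50.1% of all genes had a higher and 12.7% a lower effect). On this scale it grew most for Tlr2 (4.57 ± 0.37, adjusted p = 5.9e-08) and Nfkb2 (3.13 ± 0.15, adjusted p = 2.6e-10), followed by Bcl3 (2.67 ± 0.31, adjusted p = 2.8e-06), Cd14 (2.39 ± 0.42, adjusted p = 0.00015) and Relb (2.30 ± 0.17, adjusted p = 1.9e-08). Nfkbia did not pass (0.51 ± 0.23, adjusted p = 0.071), although it did in TPM (0.80, adjusted p = 0.0061), with library weights (adjusted p = 0.046) and without sham day-1 replicate 2 (0.73, adjusted p = 0.0042). For Myd88 the growth of 0.80 ± 0.18 (adjusted p = 0.0014) was lost after median-of-ratios scaling (0.26, adjusted p = 0.3) and quantile normalization (0.40, adjusted p = 0.096).

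The levels of both operations moved between these days. In UIR kidneys from day 1 to day 3, 7 of the 10 genes rose (49.4% of all genes) and 2 fell (17.1%). Cd14 and Nfkbia, the 2 that fell in UIR kidneys, also fell in sham kidneys over the same days, by 3.59 and 1.15 on the log2 scale. By the test of the difference given above, the sham fall was the larger for Cd14, and for Nfkbia that test did not pass. Myd88 did not pass in UIR kidneys (-0.22 ± 0.13, adjusted p = 0.15), but passed as lower after median-of-ratios scaling (-0.61), quantile normalization (-0.40) and without sham day-1 replicate 2 (adjusted p = 0.041). Among the rises, Nfkb2 rose by 1.13 ± 0.11 (adjusted p = 2.5e-07), Nfkb1 by 1.00 ± 0.10 (adjusted p = 2.3e-07) and Relb by 0.39 ± 0.12 (adjusted p = 0.0084). The rise of Relb was lost after quantile normalization (0.19, adjusted p = 0.2) and after median-of-ratios scaling (-0.003, adjusted p = 0.99), and that of Bcl3 (0.93 ± 0.22, adjusted p = 0.0015) after the latter (0.54, adjusted p = 0.061).

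From day 3 to week 3 the effect of UIR grew in 2 of the 10 genes (26.1% of all genes had a higher and 20.2% a lower effect). Nfkbia grew by 1.12 ± 0.23 (adjusted p = 0.0011). Myd88 grew by 0.48 ± 0.18 (adjusted p = 0.043), a call lost without a filter (adjusted p = 0.054), in TPM (adjusted p = 0.078), after median-of-ratios scaling (adjusted p = 0.13) and without any one of 10 of the 12 libraries of day 3 and week 3, the exceptions being replicate 3 of each sham group. Cd14 (0.84 ± 0.42, adjusted p = 0.11) passed after quantile normalization (1.06), with library weights (adjusted p = 0.041), with only the libraries compared (adjusted p = 0.0036), without replicate 1 of sham day 1 (adjusted p = 0.049) and without its replicate 2 (adjusted p = 0.0085). Tlr4 (0.29 ± 0.16, adjusted p = 0.15) passed with a pseudocount of 5 FPKM (adjusted p = 0.017). Relb (0.35 ± 0.17, adjusted p = 0.097) passed with a pseudocount of 5 FPKM (adjusted p = 0.014), after quantile normalization (adjusted p = 0.036), with library weights (adjusted p = 0.047) and without sham week-3 replicate 3 (adjusted p = 0.04). For Tlr2 and Nfkb1 the change of the effect was -0.02 ± 0.37 and 0.03 ± 0.14, with 95% intervals of -0.80 to 0.76 and -0.25 to 0.32.

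Within UIR kidneys, 6 of the 10 genes rose from day 3 to week 3 (32.2% of all genes rose and 24% fell). They were Cd14, Tlr4, Myd88, Nfkbia, Nfkb1 and Relb, with rises between 0.26 ± 0.10 for Nfkb1 (adjusted p = 0.029) and 0.93 ± 0.30 for Cd14. The rise of Tlr4 (0.39 ± 0.11, adjusted p = 0.0078) was lost with a pseudocount of 0.1 FPKM (adjusted p = 0.079) and after quantile normalization (adjusted p = 0.32). That of Nfkb1 was lost after median-of-ratios scaling (0.16, adjusted p = 0.2) and without UIR day-3 replicate 1 (adjusted p = 0.083) or 3 (adjusted p = 0.079) or UIR week-3 replicate 3 (adjusted p = 0.14). Tnfaip3 (0.29 ± 0.18, adjusted p = 0.17) passed with library weights (adjusted p = 0.015), with only the libraries compared (adjusted p = 0.039) and without UIR day-1 replicate 3 (adjusted p = 0.025). The step was 0.13 ± 0.26 for Tlr2, -0.02 ± 0.11 for Nfkb2 and -0.08 ± 0.22 for Bcl3.

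How the calls over all genes divided into higher and lower moved with the scaling of the libraries. Higher calls made up 76.3% of all calls at day 3 as deposited and 50.8% after median-of-ratios scaling, and 75.2% and 50.2% at week 3. They made up 79.7% and 47.6% for the growth of the effect from day 1 to day 3, 30.1% and 51.4% in sham kidneys from day 1 to day 3, 31.1% and 51.8% from day 1 to week 3, 74.3% and 46.9% in UIR kidneys from day 1 to day 3, and 57.3% and 47% from day 3 to week 3. For the growth of the effect from day 3 to week 3 the share was 56.4% as deposited and 46% after quantile normalization. Between the later sham groups it was 40% of 5 calls (2 higher, 3 lower) as deposited and 27.3% after quantile normalization (3 higher, 8 lower). Rescaling to TPM moved the share of sham kidneys from day 1 to day 3 to 19.9%. At day 3 and week 3 all 10 genes were called higher under each of these scalings. Relative to the median of all genes, their differences ran from 0.66 (Myd88) to 3.16 (Tlr2) at day 3 and from 1.05 (Myd88) to 3.73 (Cd14) at week 3.

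Ratios of FPKM within a library, which a single factor per library (TPM, median-of-ratios) leaves as they are but quantile normalization does not, show how the balance between the genes moved. Cd14 exceeded Tlr2 by 33.4 to 98.8 times in UIR kidneys at day 1, by 1.504 to 1.81 times at day 3 and by 2.55 to 3.15 times at week 3. In sham kidneys that ratio was 8.72 to 10.1, 3.29 to 5.25 and 2.97 to 3.24, so that the day-1 values of both operations were above all later ones. The ratio of Tlr2 to Tlr4 was 0.590 to 1.57 in UIR kidneys at day 1, below the 2.83 to 10.7 of sham kidneys, and at day 3 the order was the other way, with 4.05 to 4.93 against 0.727 to 1.65.

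Among the subunits, the ratio of Nfkb2 to Nfkb1 was 2.55 to 2.93 in sham kidneys at day 1, higher than in any other library. It was 1.30 to 1.61 in UIR kidneys of that day, and in UIR kidneys it stayed within 1.21 to 1.63 over all 3 times. The ratio of Relb to Nfkb1 was 0.999 to 1.09 in sham kidneys at day 1 and 0.299 to 0.448 in the later ones, against 1.11 to 1.26, 0.753 to 0.774 and 0.896 to 0.954 in UIR kidneys at day 1, day 3 and week 3.

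For the brakes, Nfkbia stood at 6.08 to 7.33 times Nfkb1 in UIR kidneys at day 1, at 1.90 to 2.18 times at day 3 and at 2.81 to 3.09 times at week 3. In sham kidneys it stood at 4.17 to 6.06, 3.59 to 4.54 and 2.32 to 2.90 times, overlapping UIR kidneys at week 3. The ratio of Tnfaip3 to Nfkbia was 0.046 to 0.073 in UIR kidneys at day 1, 0.169 to 0.188 at day 3 and 0.127 to 0.137 at week 3. In sham kidneys it ranged from 0.049 to 0.105 over all 3 times, so the later UIR libraries lay above every sham library.

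**Figure D3:**
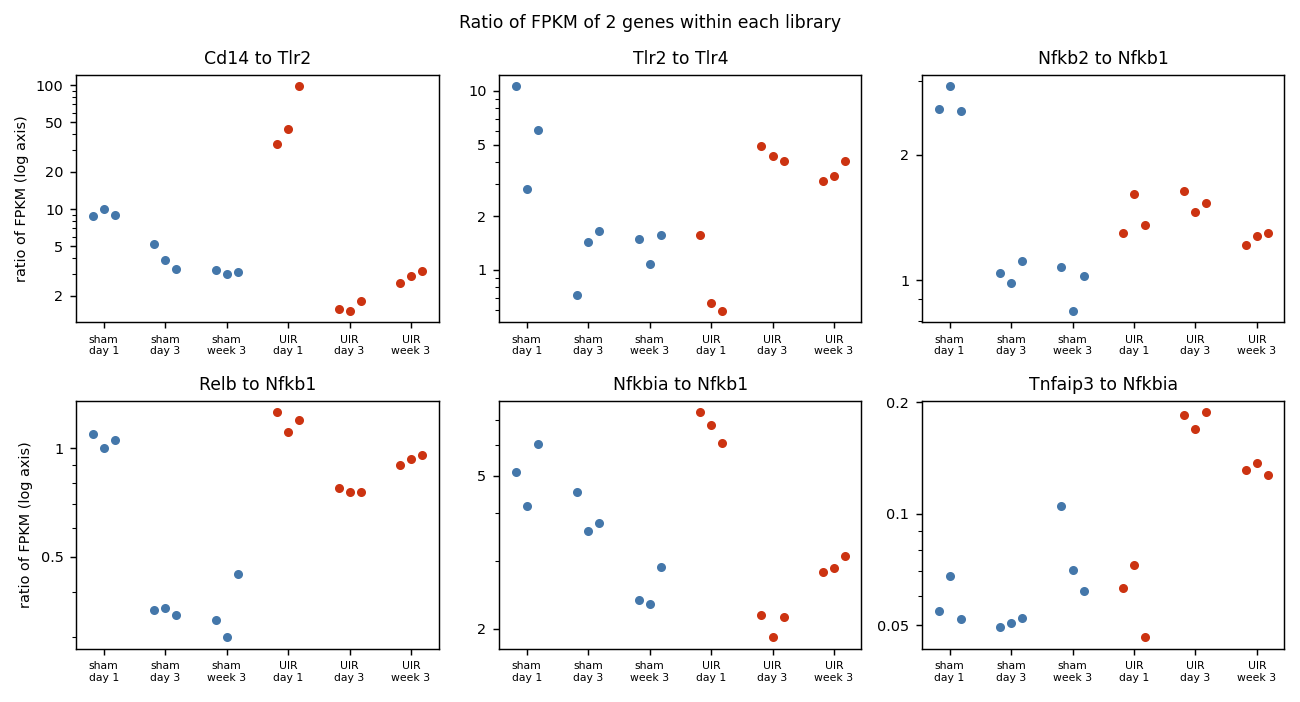
Ratio of the FPKM of 2 genes within each library, on log axes, with blue points for sham and red points for UIR libraries. Cd14 to Tlr2 peaks in UIR kidneys at day 1 (33.4 to 98.8), and Tnfaip3 to Nfkbia is highest in UIR kidneys at day 3 (0.169 to 0.188).

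Ranked by mean FPKM, which is scaled by transcript length, the order of the genes shifted with time. In sham kidneys at day 3 Nfkbia (20.6 FPKM) and Myd88 (10.1 FPKM) led without overlap, Bcl3, Nfkb2 and Nfkb1 (5.99, 5.42 and 5.20 FPKM) followed with ranges that overlapped from one to the next, then Relb and Cd14 (1.84 and 1.47 FPKM, overlapping), Tnfaip3 (1.04 FPKM), and Tlr2 and Tlr4 (0.37 and 0.30 FPKM, overlapping). In UIR kidneys at day 1 Cd14 (59.3 FPKM) came next below Nfkbia (106 FPKM), Myd88, Nfkb2, Bcl3, Relb and Nfkb1 formed a run of overlapping neighbours from 26.6 to 15.7 FPKM, and Tlr2 (1.18 FPKM) was last beside Tlr4 (1.36 FPKM). In UIR kidneys at day 3 Nfkb2 (49.9 FPKM) came next below Nfkbia, clear of Bcl3 (39.8 FPKM) and Nfkb1 (32.4 FPKM), and at week 3 Nfkb2 and Cd14 (49.4 and 49.3 FPKM) came next below it and overlapped.

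Beyond the 10 genes, 6 lists of 99 genes in all cover the rest of the pathway, and the values given for them are log2 folds, UIR minus sham, where no unit stands beside them. Of 16 other Toll-like receptors and co-receptors, 2 were higher and 5 lower in UIR kidneys at day 1, 12 higher and 2 lower at day 3, and 14 higher and 2 lower at week 3. Of all genes, 28.5% were higher and 31.1% lower at day 1, 57.6% and 17.9% at day 3, and 60.7% and 20.1% at week 3, so the 5 lower at day 1 are near the background share. The medians of the 16 were -0.11, 0.86 and 2.15, against -0.03, 0.44 and 0.53 over all genes. Unc93b1, the chaperone of the endosomal receptors, had a mean of 8.39 FPKM in sham and 36.9 FPKM in UIR kidneys at day 3 (1.98, adjusted p = 2e-08), and Lbp, which carries lipopolysaccharide to CD14, of 0.93 and 5.93 FPKM (1.84, adjusted p = 9.6e-08). Both had been lower than sham at day 1 (-0.86 and -0.84), as Tlr2 was. Cd36, a scavenger receptor and fatty acid transporter that works with TLR2, was lower at all 3 times (-1.96, -3.65 and -2.32), as was Tlr12 (-1.86, -1.12 and -0.69), and Tlr13 and Tlr6 were the 2 that were higher at day 1.

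Of 20 adaptors and kinases, 7 were higher and 5 lower at day 1, 18 higher and 2 lower at day 3, and 17 higher and 1 lower at week 3. Of all genes, 28.5% were higher and 31.1% lower at day 1, so the counts of that day are near the background share. The shares over all genes were 57.6% higher and 17.9% lower at day 3, and 60.7% and 20.1% at week 3. Their medians of 0.66 at day 3 and 0.52 at week 3 stood near those of all genes (0.44 and 0.53). At day 3 the largest were Ikbke, an IkappaB kinase relative (2.26, adjusted p = 5.8e-10), the ubiquitin ligases Traf2 (1.60, adjusted p = 7.5e-09) and Traf3 (1.48, adjusted p = 6.1e-10), and Pik3ap1 (1.38, adjusted p = 3.5e-05). Chuk, the IkappaB kinase alpha, was lower at day 3 (-0.89) and at week 3 (-1.48).

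All 7 of the other Rel subunits and IkappaB proteins were higher at day 3 and at week 3, and 4 were higher and 1 lower at day 1. Of all genes, 57.6% were higher at day 3 and 60.7% at week 3, and 28.5% were higher and 31.1% lower at day 1. Rela, the main transactivating subunit, had a mean of 33.0 FPKM in sham and 81.1 FPKM in UIR kidneys at day 1 (1.27, adjusted p = 1.3e-08). Nfkbie, a further cytoplasmic IkappaB, was like Nfkb2 and Bcl3 in having no call at day 1 (-0.02, adjusted p = 0.91) and 2.61 at day 3 (adjusted p = 1.4e-10). The nuclear IkappaB genes Nfkbiz and Nfkbid were higher at day 1 (1.18 and 0.69) and at day 3 (2.33 and 1.99), and Nfkbib was the 1 that was lower at day 1 (-0.27).

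Of 18 other brakes, 11 were higher and 3 lower at day 1, and 13 higher and 3 lower at both later times. Of all genes, 28.5% were higher and 31.1% lower at day 1. At the later times 57.6% and 60.7% were higher and 17.9% and 20.1% lower, so the 3 lower brakes are near the background share there. The medians were 0.37, 0.62 and 1.14, against -0.03, 0.44 and 0.53 over all genes. Atf3, a transcriptional repressor, had a mean of 12.03 FPKM in sham and 95.3 FPKM in UIR kidneys at day 1 (2.72, adjusted p = 4.1e-06). Irak3, a kinase-like inhibitor of MyD88 signalling, was higher at all 3 times (1.19, 1.62 and 2.62). Nlrc5 was lower at day 1 (-0.60) and higher at day 3 (1.86), and Sigirr, an inhibitory receptor, was lower at all 3 times (-1.63, -0.92 and -1.71).

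Of 24 NF-kappaB target genes tested, out of 27, 12 were higher and 2 lower at day 1, and 18 higher and 1 lower at day 3. At week 3, 20 were higher and 1 lower. Over all genes 28.5% were higher and 31.1% lower at day 1, 57.6% and 17.9% at day 3, and 60.7% and 20.1% at week 3. The medians of the targets were 0.61, 2.38 and 3.12, against -0.03, 0.44 and 0.53 over all genes. Lcn2, a tubule injury marker, was higher at all 3 times (3.76, 6.08 and 7.24), as was the neutrophil chemokine Cxcl1 (2.45, 4.83 and 3.60). The adhesion molecule Vcam1 stood at 0.61 at day 1 and 5.74 at day 3, and the monocyte chemokine Ccl2 at 0.45 at day 1, where it did not pass (adjusted p = 0.2), and 5.50 at day 3 (adjusted p = 1.6e-10). Icam1 was lower at day 1 (-0.98) and Sod2, the mitochondrial superoxide dismutase, was lower at all 3 times (-0.45, -1.75 and -2.08).

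Of 11 genes whose products are described as endogenous ligands of these receptors, 10 were higher at day 1, 8 at day 3 and 7 at week 3, and 1 was lower at each time. The share over all genes was 28.5%, 57.6% and 60.7% higher, so the count of week 3 is near the background. The medians were 1.09, 1.30 and 1.33. The heat shock genes Hspa1a and Hspa1b led at day 1 (5.95 and 5.30), near-identical copies whose reads may have been divided between them. The matrix genes Tnc and Fn1 had 2.67 and 1.05 at day 1 and 4.26 and 4.50 at week 3. The gene that was lower was Bgn at day 1 (-0.84) and Hspd1 at day 3 and week 3 (-0.64 and -2.14).

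**Figure D4:**
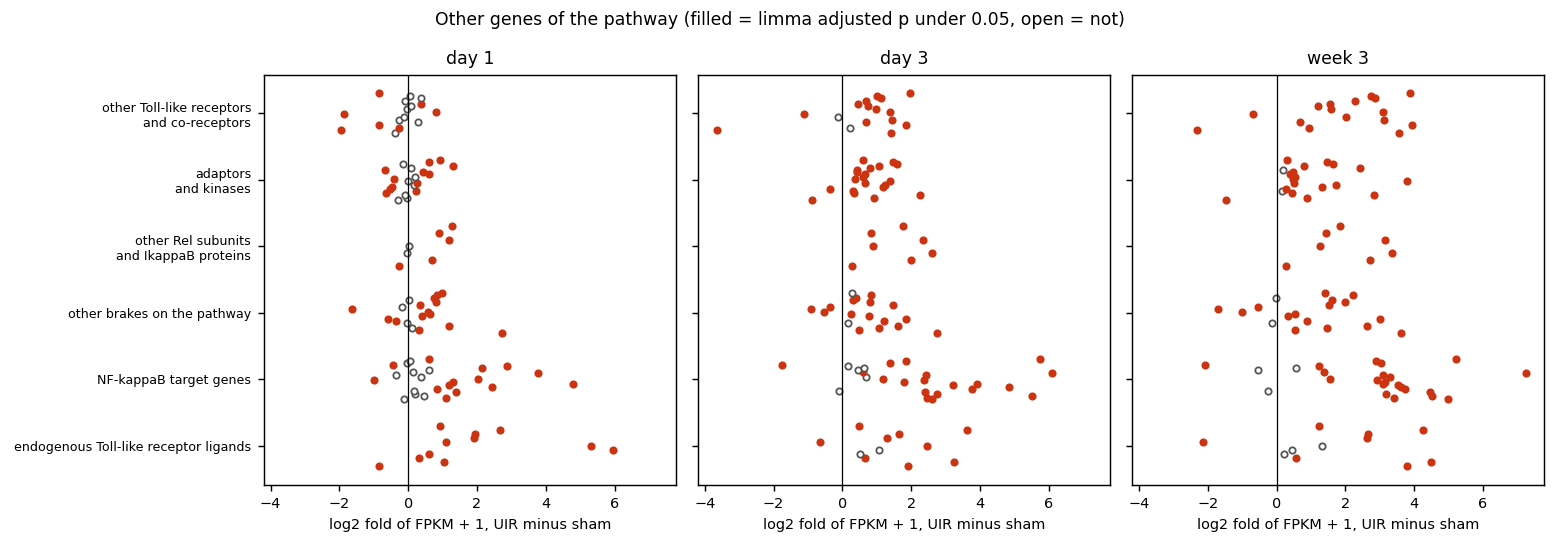
Log2 fold of FPKM + 1, UIR minus sham, of the other genes of the pathway at day 1, day 3 and week 3, 1 point per gene. Filled points passed an adjusted p of 0.05 in limma and open points did not. The target genes move right from a median of 0.61 at day 1 to 3.12 at week 3, and the adaptors and kinases have medians of 0.03, 0.66 and 0.52 at the 3 times.

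Markers of leukocytes also differed between the groups, each kind with its own course. The summed level of 8 neutrophil markers was 122 to 228 FPKM in UIR kidneys at day 1, 19.8 to 34.8 FPKM at day 3 and 29.2 to 79.2 FPKM at week 3. At day 1, 6 of the 7 tested were higher than sham (28.5% of all genes were) and 1 was lower (31.1%). The marker that was lower was Ly6g, with a log2 fold of -1.17. Mpo was at 0 in every group but UIR day 1, and 2 of the 8 markers, S100a8 and S100a9, also belong to the ligands above. Within UIR day 1, replicate 3 held the lowest neutrophil sum (122 FPKM), and the lowest value in Tlr2, Nfkbia, Nfkb1, Nfkb2, Relb, Tnfaip3 and Bcl3, but the highest in Cd14 and Myd88. That library differed in other markers too. Its proximal tubule sum (4 genes, 575 FPKM) and macrophage sum (8 genes, 64.9 FPKM) were the lowest of the group. Its collecting duct sum (2 genes, 90.8 FPKM) and podocyte sum (2 genes, 41.5 FPKM) were the highest.

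Summed markers of monocytes and macrophages (8 genes) were 64.9 to 83.1 FPKM in UIR kidneys at day 1, 287 to 729 FPKM at day 3 and 3052 to 4294 FPKM at week 3. All 8 were higher than sham at day 3 (57.6% of all genes were) and at week 3 (60.7%). Between these 2 later UIR groups that sum did not overlap. In the same step 6 of the 10 genes rose by limma, as given above (32.2% of all genes rose and 24% fell). T cell markers (5 genes, 77.6 to 101 FPKM at UIR week 3), B cell markers (4 genes, 9.44 to 11.3 FPKM) and fibroblast markers (4 genes, 542 to 617 FPKM) were also highest there. So were endothelial markers (4 genes, 106 to 124 FPKM) and podocyte markers (2 genes, 79.2 to 84.4 FPKM). Collecting duct markers (2 genes, 10.5 to 18.2 FPKM) were lowest there, as was the mean sum of thick ascending limb markers (2 genes, 547 FPKM). Proximal tubule markers (4 genes), which give the tissue its identity, summed to 1160 to 1356, 3081 to 3387 and 3391 to 3788 FPKM in sham kidneys and to 575 to 1416, 162 to 282 and 28.7 to 232 FPKM in UIR kidneys at the 3 times. The part of cell makeup in the levels of the 10 genes was not tested.

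**Figure D5:**
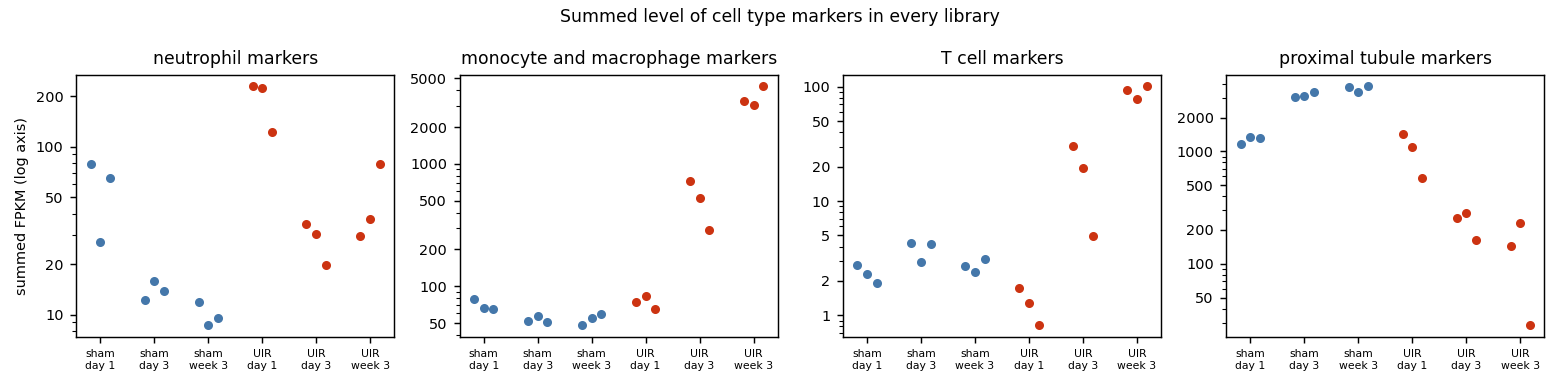
Summed FPKM of cell type markers in each library, on log axes, with blue points for sham and red points for UIR. Neutrophil markers peak in UIR kidneys at day 1 (122 to 228 FPKM), macrophage markers at week 3 (3052 to 4294 FPKM), and proximal tubule markers are lowest in UIR kidneys at day 3 and week 3.

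Over the 18 libraries the 10 genes resembled one another to different degrees, given as Pearson's r of log2(FPKM + 1). These values describe libraries that fall into 6 groups and share operation and day, and they carry no test. Nfkb1 and Tnfaip3 were the closest pair (r = 0.986), and Cd14 and Tlr2 the least alike (r = 0.648). Within groups the order differed: over the deviations from the group means, r was 0.809 for Cd14 and Tlr2 and 0.884 for Cd14 and Myd88, but 0.053 for Cd14 and Tlr4. Relb and Bcl3 had 0.877 on that measure.

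Among 9407 candidate genes (9408 for Tlr4) with a mean of at least 5 FPKM, the profile most like that of Cd14 was that of Tnfrsf1a, a receptor for TNF (r = 0.995). For Nfkb1 it was Elf4 (r = 0.998), for Tlr4 Ppp1r18 (r = 0.991), for Relb Rhou (r = 0.990), for Tnfaip3 Marcksl1 (r = 0.986), for Nfkb2 Ifngr2 (r = 0.985), for Myd88 Hspb8 (r = 0.984) and for Tlr2 Terf2 (r = 0.979). Genes of the same pathway came first for 2 of the 10: Nfkbiz for Nfkbia (r = 0.983) and Nfkb2 for Bcl3 (r = 0.977). Pathway genes also stood among the 3 most alike in the cases of Irf1 for Tlr2, Ikbkb for Nfkb2, Nfkb1 for Tnfaip3 and Gadd45b for Nfkbia.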

How the data were processed

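RNA of whole mouse kidney was sequenced in 18 libraries, and the table used is the FPKM table that the authors deposited, with 1 column per library. Per the submitters' processing notes, the tools were RSEM 1.2.12, HISAT2 2.0.4 and Bowtie2 2.2.5, with mm9 as build, and no role is given for each. Read counts were not used here, so no counting interval is given.

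Values were analysed as log2(FPKM + 1), which understates folds of low genes. limma 3.58.1 in R 4.3.3 (trended variance, two-sided) fitted 6 group means to 18 libraries with 12 residual degrees of freedom, and p-values were adjusted by Benjamini-Hochberg over the genes with at least 1 FPKM in at least 3 libraries. Comparisons were UIR against sham at each time, the change of that difference between times, times within sham and within UIR, and UIR day 1 against the later sham groups. Exact permutation of 3 libraries against 3 was not used, since it reaches no low p. The script was tested on simulated data.

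The members, lists and markers were chosen with earlier results of these data known. Named were all 10 genes and, of each list, up to 4 with the largest absolute fold among those called at day 1 or day 3, plus members that moved the other way. Likeness is Pearson's r over 18 libraries, 3 genes each. Alternatives were other pseudocounts (0.1, 5), filters (none, 5 FPKM), scalings (TPM, median-of-ratios, quantile), library weights, only the libraries compared, a replicate block and leaving out each library. Promoter windows come from RefSeq on GRCm38.p6, another build than mm9. The groups share replicate numbers, but the labels name no shared animal.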

Additional observations from a re-analysis of the deposited data

Results flagged for a closer look

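The effect of UIR, the difference from sham kidneys of the same day on the log2(FPKM + 1) scale, differed between days by a limma test of the difference itself. From day 1 to day 3 it grew by 2.39 for Cd14, 4.57 for Tlr2, 1.197 for Tlr4, 0.80 for Myd88, 1.72 for Nfkb1, 3.13 for Nfkb2, 2.30 for Relb, 1.69 for Tnfaip3 and 2.67 for Bcl3. From day 3 to week 3 it grew by 0.48 for Myd88 and by 1.12 for Nfkbia. Groups of 3 libraries were too small for a check of single libraries that lie apart.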

How the results depend on the processing

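Over 10 settings other than leaving out a library, 1043 of 1089 values of the 10 genes kept their direction and their side of the threshold, and over 18 fits that each left out 1 library 1937 of 1980 did. At day 3 and week 3 every difference between UIR and sham did so in each setting that gave a value. Tlr4 gave none with the filter at 5 FPKM.

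The count of genes lower at day 1 was 0 with only the libraries compared and 1 to 2 in leave-one-out fits. The count whose effect grew from day 3 to week 3 was 4 with a pseudocount of 5, after quantile normalization and with library weights, 1 without a filter, in TPM and after median-of-ratios scaling, and 1 to 3 in leave-one-out fits. Between the later sham groups library weights gave 1 higher and 1 lower, against 0 and 0.

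Signs turned as follows, and the cause was not tested. After median-of-ratios scaling, the growth of the effect from day 1 to day 3 was -0.0604 for Nfkbia, its change from day 3 to week 3 was -0.0593 for Nfkb1, the sham step from day 3 to week 3 was -0.0076 for Myd88 and the UIR step from day 1 to day 3 was -0.00345 for Relb. In TPM the change of the effect from day 3 to week 3 was -0.0641 for Nfkb1, and with library weights it was -0.0337 for Nfkb1 and -0.0166 for Bcl3. With a pseudocount of 5 it was 0.0676 for Tlr2. The sham step of Myd88 was -0.0227 after quantile normalization and -0.0137 with library weights, and the UIR step of Nfkb2 from day 3 to week 3 was 0.0316 after quantile normalization. Leave-one-out fits gave -0.329 to 0.124 for Bcl3 at day 1, -0.107 to 0.0554 for Tlr2 and -0.0385 to 0.0890 for Nfkb1 in the change of the effect from day 3 to week 3, -0.0821 to 0.0510 for Myd88 in the sham step, and -0.111 to 0.0372 for Nfkb2 and -0.219 to 0.0239 for Bcl3 in the UIR step from day 3 to week 3.

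The labels do not say whether libraries with the same replicate number are paired. Deviations of same-numbered UIR and sham libraries correlated at -0.07, 0.02 and -0.06 at day 1, -0.01, 0.10 and 0.11 at day 3, and 0.08, -0.06 and 0.05 at week 3. With 3 libraries per group these values cannot decide it. With a replicate block the counts at day 1 were 6 higher and 1 lower, as without it, and the block changed no call of the 10 genes in any comparison.

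Depth is unknown, so for Tlr2 and Tlr4 in sham kidneys, listed under 1 FPKM in most libraries, the precision rests on 3 replicates per group. Of 81 called differences of the 10 genes, 30 moved by over 1.5 times with a pseudocount of 5 FPKM, 9 with a pseudocount of 0.1 FPKM, 12 after quantile normalization and 10 after median-of-ratios scaling. Leaving out a library did so for Cd14 and Tlr2 at day 1, as given above, and for Tnfaip3 in UIR kidneys from day 1 to day 3 (0.84, and 0.56 without UIR day-1 replicate 3).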
